A study of Mus musculus with 6 samples.

Results

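Cytosolic ribosomal protein genes were compared between GFP-positive pancreatic cells of p120 knockout mice and of mice with wild-type p120. The members were the 61 genes that had a row of their own on the array under a symbol of the Rps, Rpl, Rplp or Rpsa form, of 20259 genes measured, and together they held 157 rows. Each gene was represented by its row of highest mean over the 6 arrays. Of the 61 genes, 21 belonged to the small ribosomal subunit (Rpsa included), 37 to the large subunit and 3 to the P-stalk. A further 14 ribosomal protein symbols, Rps6, Rps14 and Rpl3 among them, occurred only on rows that the platform annotation gives to several genes, mostly pseudogenes, and were not used here. In all, 154 rows named a ribosomal protein symbol among several, many of them symbols of members, and none entered the fit. Some had a higher mean than the row used: 12.37 against 6.62 for Rpl31, 10.31 against 6.92 for Rps12 and 10.37 against 7.25 for Rps23.

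Ribosomal proteins surround the ribosomal RNA of the small subunit, which decodes the messenger RNA, and of the large subunit, which joins amino acids. Their messenger RNAs are abundant and start with a run of pyrimidines, the terminal oligopyrimidine (TOP) motif, through which mTOR and LARP1 control their translation as a group. Acinar cells of the pancreas make and secrete large amounts of digestive enzymes and are rich in ribosomes.

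The first group was KCiMist1G; p120f/f, which the labels call p120 knockout, with 3 arrays, and the second was KCiMist1G; p120wt/wt, also with 3 arrays. All mice were of the KCiMist1G background, a model of preinvasive pancreatic cancer whose alleles the labels do not spell out, and all received tamoxifen, which switches on Cre, when aged 7 to 9 weeks. Their pancreases were digested 2 weeks later and the GFP-positive cells sorted. The labels number the samples as biological replicates, but do not say if a replicate pooled several animals or which promoter drives Cre. The p-values thus rest only on the spread among these samples. Values are log2 signals normalized by RMA, and a difference is the mean of the knockout arrays minus the mean of the wild-type arrays.

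Facts of the whole series bear on every value here. Ctnnd1, the gene of p120 catenin, measured 5.61, 6.61 and 6.38 in the knockout samples, against 5.87, 6.81 and 6.44 in the wild-type samples, a difference of -0.17 (SE 0.32), so the single row did not show a loss and every direction is that of the labels. Whether that row reads the deleted part is not known. Markers of several cell types were measured in the sorted cells. On the knockout arrays the mean over 24 leukocyte markers, of 28 listed, was 7.92, 6.75 and 6.80, and it ran from 7.43 to 7.66 on those of wild type. The mean over 9 acinar markers, of 12 listed, was 10.90, 11.64 and 11.64 on the knockout arrays and ran from 11.39 to 11.48 on the wild-type arrays. No value of these markers was at 0, the lowest being 4.69 for leukocyte markers and 7.29 for acinar markers. In such bulk samples, fewer cells of a type and less RNA per cell cannot be told apart.

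The promoters of the 5 genes whose knockout and wild-type arrays did not overlap are shown because the TOP motif lies where their transcripts start. Each runs from 100 bases before the annotated start to 20 bases from it on, is given 5′ to 3′ on the gene's strand (RefSeq, GRCm38.p6), and has its longest run of C or T near the start in capitals.
Rps9 promoter, chr7:3703941-3704060, plus strand: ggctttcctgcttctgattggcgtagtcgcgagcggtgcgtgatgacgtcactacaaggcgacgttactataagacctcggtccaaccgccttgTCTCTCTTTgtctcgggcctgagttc
Rpl4 promoter, chr9:64173287-64173406, plus strand: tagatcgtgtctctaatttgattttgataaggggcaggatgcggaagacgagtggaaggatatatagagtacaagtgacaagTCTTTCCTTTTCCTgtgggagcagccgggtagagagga
Rps18 promoter, chr17:33955646-33955765, minus strand: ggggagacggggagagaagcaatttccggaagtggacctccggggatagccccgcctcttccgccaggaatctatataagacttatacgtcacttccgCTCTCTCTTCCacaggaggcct
Rps27 promoter, chr3:90213629-90213748, minus strand: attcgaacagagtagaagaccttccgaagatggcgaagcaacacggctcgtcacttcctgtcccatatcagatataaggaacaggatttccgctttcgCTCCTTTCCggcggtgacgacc
Rpl28 promoter, chr7:4792865-4792984, plus strand: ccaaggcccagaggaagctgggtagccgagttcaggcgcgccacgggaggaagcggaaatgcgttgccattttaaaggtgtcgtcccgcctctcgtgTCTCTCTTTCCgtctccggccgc

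All 5 of these windows held such a run, of 9 bases in Rps9 and Rps27, 11 in Rps18 and Rpl28 and 14 in Rpl4. Over the members, 49 of 61 matched a promoter entry by symbol, with 58 windows in all. A run of at least 5 C or T bases that came within 5 bases of the annotated start was found in 29 of the 49 genes (59.2%), against 35.1% of 27025 genes with an entry. For runs of at least 8 bases the shares were 40.8% of the members and 10.96% of all genes. Annotated starts can lie a few bases from the true ones, so a missing run says only that these letters are not at that place.

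Short words were searched on both strands over the whole of each entry, from 250 before to 50 after the start. GGAAGT, the core of the site bound by ETS factors, was present in 49.0% of the 49 members and 26.5% of all genes. AAGATGG, the core of the YY1 site, was present in 16.3% of the members and 7.28% of all genes. TATAAA was present in 12.2% of the members and 15.7% of all genes. These words can overlap each other or the pyrimidine run, and a match is a string of letters and not a measured site. Among the 5 genes shown, Rps18, Rpl28 and Rps27 held GGAAGT, Rps27 also held AAGATGG, and Rps9 and Rpl4 held none of these words. The genes above and below their wild-type values thus both included promoters with a long pyrimidine run near the start. The run of Rpl4 lay wholly before the annotated start, beginning at -18.

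No ribosomal protein gene passed the test between the groups: 0 of 61 members were called by limma at a Benjamini-Hochberg adjusted p of 0.05, where 0% of all genes were (0 of 20259). The smallest adjusted p among the members was 0.907. Before adjustment, 2 members had a p under 0.05, Rps18 above and Rps9 below the wild-type arrays, against 3.49% of all genes (2.31% higher and 1.19% lower). The knockout and wild-type arrays did not overlap for 5 members, or 8.20%, where 8.69% of all genes did not overlap, so the share of separated members was close to the background. Of these, 3 lay above wild type (6.21% of all genes did) and 2 below it (2.47% of all genes).

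The median member differed by 0.071 and the median gene by 0.055, and 49 of 61 members (80.3%) lay above 0, against 61.7% of all genes. Among the 48 members above the 90th percentile of level the median was 0.058 with 38 above 0, beside -0.030 with 876 above 0 for the 1978 other genes at that level. This direction depended on the scaling: after a further quantile normalization the member median was 0.16 with 55 above 0, and with the arrays shifted to 1 median it was -0.014 with 26 above 0, while the median gene moved to 0.028 and -0.029. The other genes above the 90th percentile had medians of 0.057 and -0.11 under the same scalings. The quartiles of the members' differences were 0.0093 and 0.15, and the median standard error of a member was 0.16. The typical difference was therefore smaller than its own error. The 95% confidence intervals of the 61 members reached down to -0.96 and up to 1.43, and those of 59 members included 0.

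**Figure D1:**
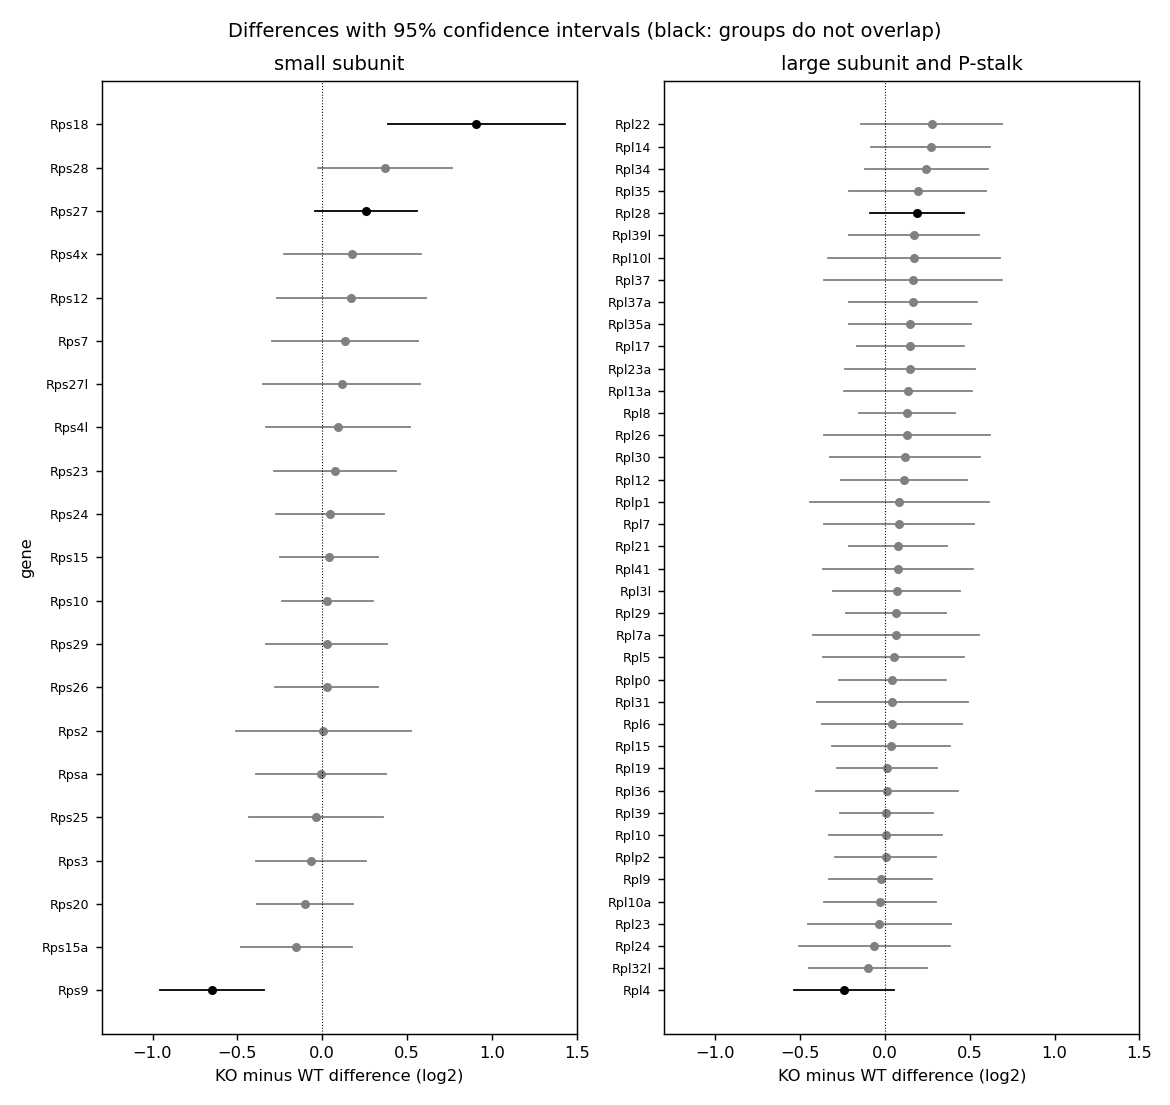
Difference between knockout and wild-type arrays (log2, x axis) with its 95% confidence interval from limma for each gene (y axis), small subunit on the left and large subunit with P-stalk on the right; black marks genes whose groups do not overlap. The intervals of Rps9 (-0.65) and Rps18 (0.91) lie off 0 and all others cross it, before any adjustment for the number of genes.

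In the small subunit, Rps9 had the lowest difference of all members. Rps9, a protein at the body of the subunit that acts in decoding accuracy, measured 8.04, 7.84 and 7.91 on the knockout arrays and 8.67, 8.40 and 8.67 on the wild-type arrays. All knockout values lay under all wild-type values. The difference was -0.65 (SE 0.13, 95% confidence interval -0.96 to -0.35, limma adjusted p = 0.907), and its exact two-sided permutation p was 0.1, the smallest that 3 against 3 arrays can give. It had 1 row, so no other row could be set beside it. Leaving out each array in turn kept the difference between -0.74 and -0.60.

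Rps18, which sits in the head of the small subunit near the bridge to the large subunit, had the highest difference. Its row measured 5.52, 6.35 and 5.89 on the knockout arrays and 5.20, 5.05 and 4.78 on those of wild type. The groups did not overlap, with a difference of 0.91 (SE 0.22, limma adjusted p = 0.907, exact permutation p = 0.1). The knockout arrays spread over 0.41 (SD) around 5.92 and the wild-type arrays over 0.21 around 5.01 (n = 3 each). The other 3 rows of Rps18 did not show this difference: they gave 0.16, -0.18 and -0.09, and the mean of the 4 rows gave 0.20. All 4 rows averaged under 5.5, near the median gene at 5.43. Rows that name Rps18 together with another gene were brighter, at means of 10.84 and 9.52. They differed by 0.036 and -0.076.

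Rps28 and Rps27 followed among the small subunit genes above wild type. Rps28, a small protein near the messenger RNA exit, measured 8.37, 8.79 and 8.95 on the knockout arrays and 8.36, 8.41 and 8.23 on the wild-type arrays. Knockout array 1 lay within the wild-type range, and the difference was 0.37 (SE 0.17, limma adjusted p = 0.907). Rows that name Rps28 together with other genes included brighter ones, at means of 11.77, 9.31 and 8.85. These differed by -0.14, -0.09 and -0.21, and dimmer such rows by 0.04, -0.12 and 0.06. Rps27, a zinc-finger protein of the subunit's surface, measured 8.88, 8.94 and 9.00 on the knockout arrays and 8.83, 8.72 and 8.49 on the wild-type arrays. Its groups did not overlap, by a gap smaller than the spread among the wild-type arrays, and its second row differed by -0.04. Its difference was 0.26 (SE 0.13, limma adjusted p = 0.907, exact permutation p = 0.1).

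Below wild type in the small subunit stood Rps15a, Rps20, Rps3 and Rps25, with differences of -0.15, -0.10, -0.07 and -0.04. Rps20 and Rps3 line the messenger RNA entry side of the subunit and are modified when ribosomes stall. Rps20 measured 10.49, 10.37 and 10.31 on the knockout arrays and 10.61, 10.38 and 10.48 on the wild-type arrays, which overlapped. Rps15a was -0.15 on its brightest row while its other rows gave 0.04 and 0.21. Rps10, Rps2 and Rpsa lay within 0.03 of 0: Rps10, another protein of the entry side, averaged 13.40 ± 0.027 in knockout cells and 13.37 ± 0.11 in wild-type cells (SD, n = 3 each). Rpsa, also known as a laminin receptor, averaged 11.55 ± 0.29 in knockout cells and 11.56 ± 0.069 in wild-type cells (SD, n = 3 each).

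In the large subunit no gene stood as far from 0 as Rps9 or Rps18, and the 37 differences ran from -0.24 to 0.27. Rpl4, which lines the tunnel through which the new protein leaves, measured 9.64, 9.50 and 9.37 on the knockout arrays and 9.86, 9.67 and 9.70 on those of wild type. The knockout values lay under the wild-type values, with a gap of a few hundredths between the nearest arrays. The difference was -0.24 (SE 0.13, limma adjusted p = 0.907, exact permutation p = 0.1), and the second row of Rpl4 differed by 0.10. The other genes below wild type were Rpl32l, Rpl24, Rpl23, Rpl10a and Rpl9, at -0.10 to -0.03.

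Toward higher values in the large subunit, Rpl22, Rpl14, Rpl34, Rpl35 and Rpl28 had the largest differences. Rpl22, an RNA-binding protein that the ribosome does not need and that is deleted in some leukaemias, measured 7.99, 8.53 and 8.57 on the knockout arrays and 8.14, 8.15 and 7.97 on the wild-type arrays. Knockout array 1 lay inside the wild-type range and the other knockout arrays above it, with a difference of 0.27 (SE 0.18), beside 0.0016 on its second row. Rpl34 differed by 0.25 on its brightest row and by -0.14 on its second. Rpl14 measured 8.90, 9.24 and 9.12 on the knockout arrays and 9.01, 8.81 and 8.63 on the wild-type arrays, and differed by 0.27 (SE 0.15). Rpl28, a protein found only in eukaryotic ribosomes, measured 13.23, 13.28 and 13.31 on the knockout arrays and 13.22, 12.96 and 13.06 on the wild-type arrays. Its nearest knockout and wild-type arrays were almost level, at a difference of 0.19 (SE 0.12), and its other rows gave 0.06 and -0.10. The adjusted p of all 3 was 0.907 in limma.

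Some members also have roles outside the ribosome or act late in its assembly. Rpl5, which with 5S RNA binds Mdm2 when ribosome assembly fails, measured 8.84, 9.39 and 9.13 on the knockout arrays and 9.21, 9.15 and 8.85 on the wild-type arrays, a difference of 0.05 (SE 0.18). Rpl23 and Rpl26, which also act on the p53 pathway, differed by -0.03 and 0.13. Rpl10, which joins the large subunit late, averaged 13.03 ± 0.14 in knockout cells and 13.03 ± 0.18 in wild-type cells (SD, n = 3 each). Rpl13a, which in human cells is released from the ribosome after interferon-gamma, differed by 0.13 (SE 0.16).

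The P-stalk recruits the translation factors that use GTP. Rplp0, its base, measured 11.80, 12.11 and 12.10 on the knockout arrays and 12.05, 11.98 and 11.85 on the wild-type arrays, a difference of 0.04 (SE 0.13). Rplp1 measured 9.82, 10.57 and 10.69 on the knockout arrays and 10.30, 10.28 and 10.24 on the wild-type arrays, a difference of 0.08 (SE 0.23). Its knockout arrays lay on both sides of its wild-type arrays. Rplp2 measured 7.47, 7.19 and 7.17 on the knockout arrays and 7.25, 7.23 and 7.34 on the wild-type arrays, with knockout array 1 highest where Rplp1 had it lowest. Its difference was 0.0039 (SE 0.13).

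Related copies of ribosomal protein genes had differences from 0.071 to 0.17, apart from Rpl32l (-0.10). Rps27l, a p53-induced copy of Rps27, differed by 0.12 (SE 0.20), beside 0.26 for Rps27. Rpl10l and Rpl39l, copies used in the testis, had signals of 3.34 to 4.10 and 3.04 to 3.55 over the 6 arrays and differed by 0.17 each. Rpl3l, the copy of heart and skeletal muscle, had signals of 3.91 to 4.40 and differed by 0.07. Rps4l, which the reference table calls a transcribed pseudogene, differed by 0.09, beside 0.18 for Rps4x. Signals of different rows come from different probes, so these levels rank nothing, and no detection calls were given. No difference between a copy and its counterpart was tested.

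Most members shared a pattern from array to array within each group. Knockout array 1 was the lowest of the 3 knockout arrays for 54 of 61 members (88.5%), where it was lowest for 56.7% of all genes and 51.5% of the 1978 other genes above the 90th percentile of level. The median member lay 0.38 under the mean of knockout arrays 2 and 3, and the median gene 0.15 under it. Wild-type array 1 was the highest of its group for 51 members (83.6%), against 38.0% of all genes, and wild-type array 3 was the lowest for 41 (67.2%), against 36.4%. These counts held after scaling: knockout array 1 was lowest for 58 members after a further quantile normalization and for 51 with arrays shifted to 1 median, and wild-type array 1 was highest for 45 and 39.

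**Figure D2:**
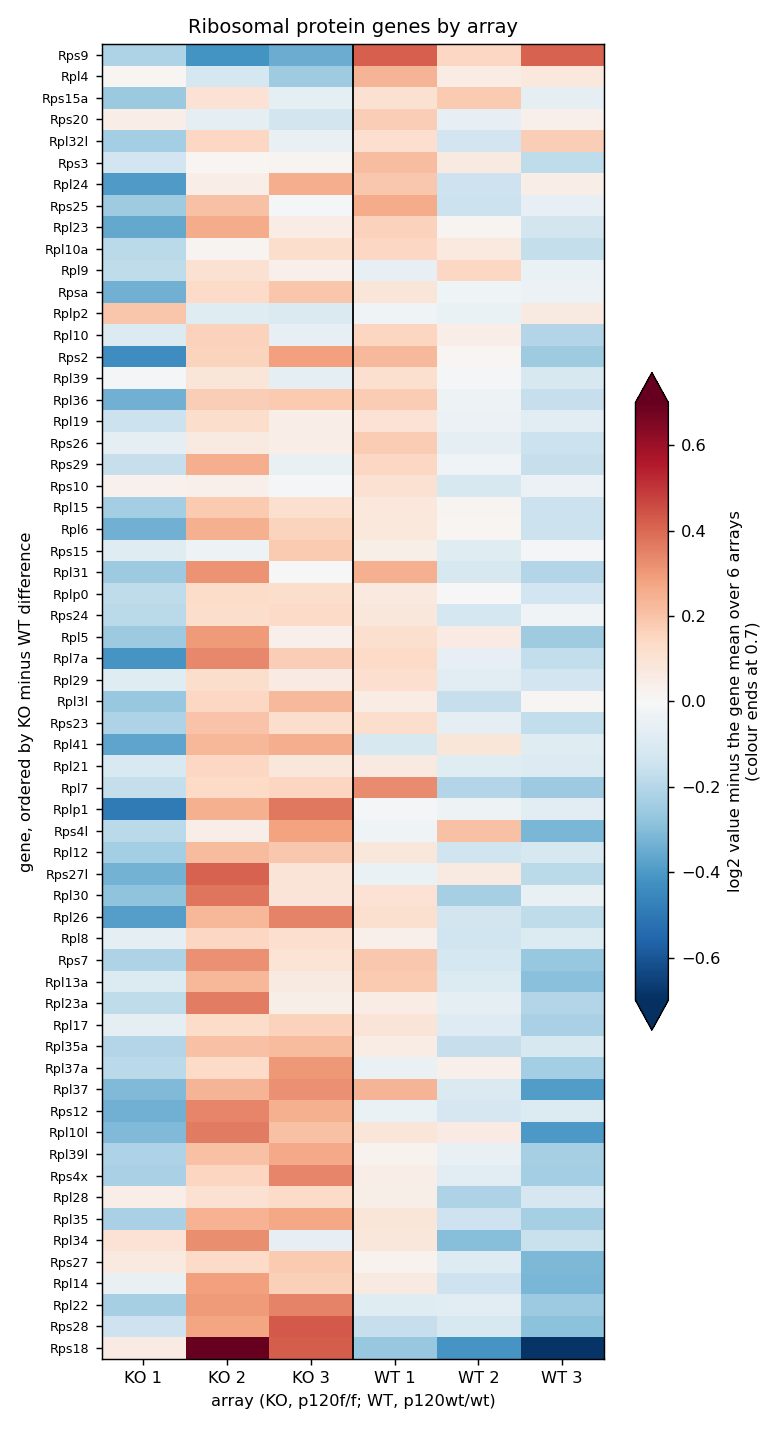
Each row is a ribosomal protein gene, ordered by its knockout minus wild-type difference, and each column an array, knockout on the left; colour is the log2 value minus the gene's mean over 6 arrays. Knockout array 1 is blue for most genes and wild-type array 1 red, while Rps9 at the top and Rps18 at the bottom follow the groups.

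The genes that did not follow knockout array 1 were few. Rplp2, Rpl4, Rps9 and Rps20 had their highest knockout value on that array, and Rps10, Rpl39 and Rpl34 had it in the middle. The deepest drops within the knockout group were those of Rplp1, Rpl26, Rpl7a and Rps2, at -0.80, -0.68, -0.67 and -0.66 against the mean of the other knockout arrays. On the same array 22 of 24 leukocyte markers had their highest and 9 of 9 acinar markers their lowest knockout value, at the list means given above. It was also the lowest knockout array for 5 of 5 duct, 7 of 8 fibroblast, 6 of 7 endothelial and 5 of 6 islet markers. Between the groups, all 8 fibroblast markers lay below 0 with a median of -0.44. The leukocyte lists also had medians below 0: -0.39 for T and NK cells, -0.32 for B cells, -0.35 for macrophages and -0.43 for neutrophils. The islet median was -0.44, and Gcg, the glucagon gene of islets, differed by -1.14 without overlap. Medians of the acinar, duct and endothelial lists were -0.038, -0.038 and 0.0037. No gene of these lists passed the adjusted threshold. The part of these cell types in the ribosomal protein pattern was not tested. Wild-type array 1 was highest of its group for 6 of the 24 leukocyte markers and 4 of the 9 acinar markers.

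Without knockout array 1 the median member and the median gene both moved up, while members below 0 such as Rps15a and Rpl32l moved toward 0. The median member then differed by 0.20 and the median gene by 0.11, 54 of 61 members lay above 0, and 13 members lay above and 2 below wild type at an unadjusted p under 0.05. In that fit 29.3% of all genes had an unadjusted p under 0.05, so the members' count of 15 was below that share. The smallest limma adjusted p of a member there was 0.0542, for Rps18, and no member passed. Over all 16 alternative fits the adjusted p of Rps18 ran from 0.0218, with array weights that put most weight on knockout array 2, to 1.00.

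**Figure D3:**
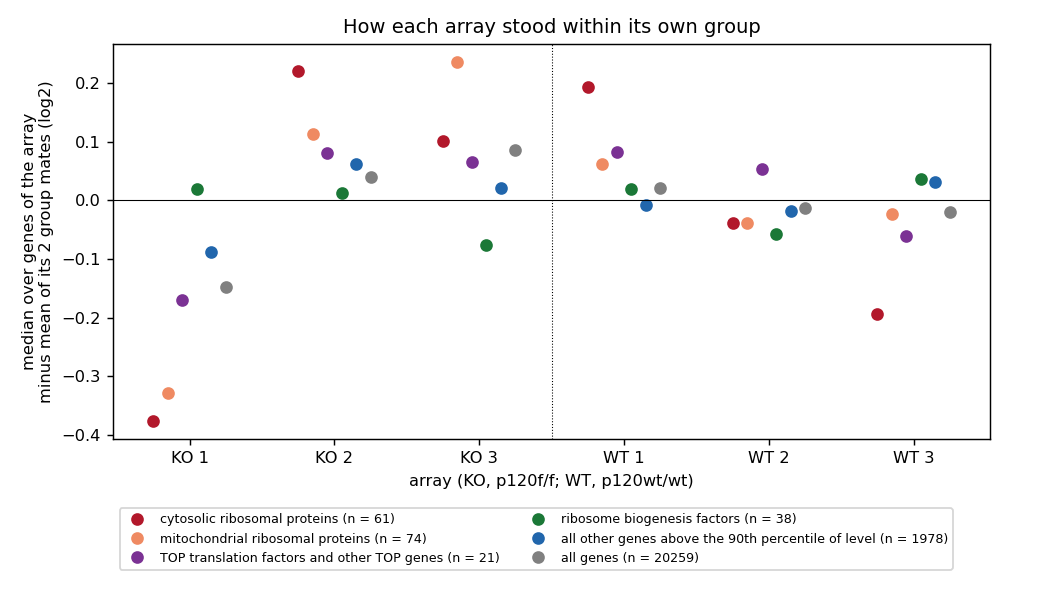
For each array (x axis, knockout on the left), the median over a gene list of its log2 value minus the mean of the other 2 arrays of its group (y axis), 1 colour per list. Cytosolic ribosomal proteins reach -0.38 on knockout array 1 and mitochondrial ones -0.33, while ribosome biogenesis factors stay at 0.020.

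Genes of the same pathway were read beside the members. The 74 mitochondrial ribosomal proteins, which build the ribosomes inside mitochondria, had a median difference of 0.10 with 57 above 0. None passed over all genes, and 5 had an unadjusted p under 0.05, all higher (2.31% of all genes were): Mrpl20 (0.38), Mrpl4 (0.42), Mrpl52 (0.36), Mrpl11 (0.38) and Mrpl45 (0.29). Mrpl20 measured 6.26, 6.54 and 6.57 on the knockout arrays and 6.06, 6.11 and 6.06 on the wild-type arrays, without overlap. With the arrays shifted to 1 median this list had a median of 0.018 with 38 above 0 and 1 gene at that p, and without knockout array 1 it had 25, in a fit where 29.3% of all genes reached it. Knockout array 1 was the lowest of its group for 60 of the 74.

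Ribosome biogenesis factors, which make and process ribosomal RNA, lay the other way. Of 38 measured (40 listed), 26 were below 0 with a median of -0.081, and the median stayed below 0 under the other scalings (-0.072 after a further quantile normalization and -0.16 with arrays shifted to 1 median). None passed over all genes or had an unadjusted p under 0.05 with all 6 arrays as deposited. At that p, 5 were lower with arrays shifted to 1 median, where 505 of 20259 genes were lower. Without knockout array 1, 8 were lower and 2 higher, in a fit where 29.3% of all genes reached it (2194 lower and 3744 higher). The groups did not overlap for 6 of the 38, all lower (2.47% of all genes were). Gnl3, the nucleolar protein nucleostemin, measured 8.13, 7.98 and 7.87 on the knockout arrays and 8.22, 8.20 and 8.26 on the wild-type arrays, a difference of -0.23 (SE 0.12). Utp15 (-0.37), Nolc1 (-0.24) and Nop58 (-0.25) had the other smallest p-values. Knockout array 1 was the lowest of its group for 14 of the 38, so these genes did not share the array pattern of the ribosomal proteins to the same count.

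A list of translation factors and other genes taken as TOP genes had a median of 0.044 with 13 of 21 above 0, and it was -0.040 with arrays shifted to 1 median. Its lowest member was Vim (-0.33), which encodes an intermediate filament protein. None passed over all genes. Eef1a1, which brings aminoacyl-tRNA to the ribosome, averaged 10.63 ± 0.11 in knockout cells and 10.67 ± 0.067 in wild-type cells (SD, n = 3 each). Btf3 (-0.13) had the smallest p-value and the only separated groups of this list. Regulators of TOP translation and of growth had a median of 0.039 over 14 genes of 17 listed, with Mycn at -0.28 and Myc at 0.23, and 0 passed over all genes or had an unadjusted p under 0.05. Mtor, the kinase, differed by 0.01 and Larp1, which holds TOP messenger RNAs, by -0.04. Of the 4 ribosome-related genes that lay outside the symbol rule, Fau, which encodes a small subunit protein fused to a ubiquitin-like one, differed by 0.05, and Rpl22l1, a copy of Rpl22, by 0.13.

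**Figure D4:**
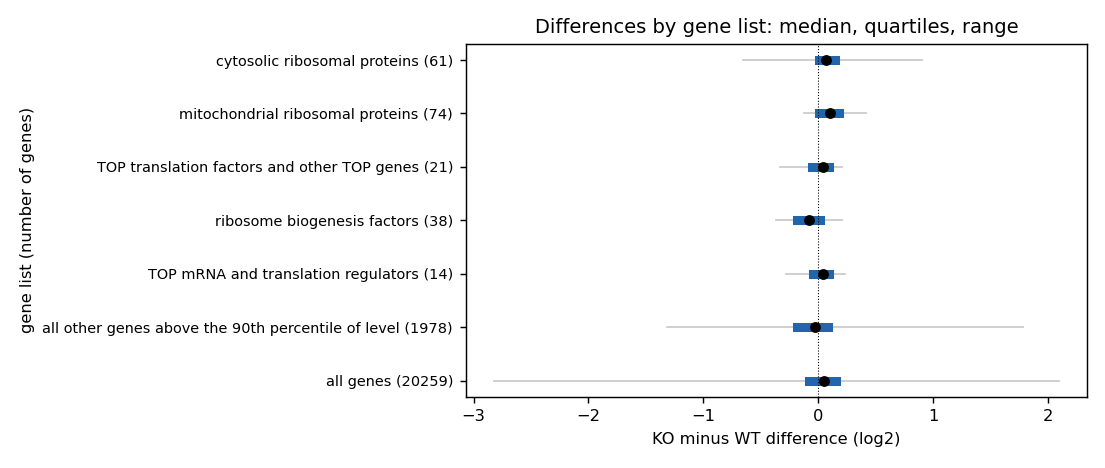
Knockout minus wild-type difference (log2, x axis) by gene list (y axis, with the number of genes): points are medians, thick bars the quartiles and thin lines the range. The medians run from -0.081 for ribosome biogenesis factors to 0.10 for mitochondrial ribosomal proteins, and the median of all genes is 0.055.

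Rows of 1 gene often disagreed in sign. Among the 40 members with more than 1 row, the differences of the rows had both signs in 28 and 1 sign in 12. The brightest and the second brightest row shared a sign in 25 of 40, and the median gap between their differences was 0.075. Over all 157 rows, 111 lay above 0 with a median of 0.045, 4 had an unadjusted p under 0.05, and 0 passed when adjusted over all rows with 1 symbol. The row averages within a gene spanned between 0.23 and 9.15 log2 units, with 24 genes spanning at least 2. Rps7 had the widest span, with a dimmest row of 1.92, and its rows differed by 0.13, 0.11 and 0.0028. Rows far apart in level can read different parts of the transcript, pseudogenes or paralogs, which these data cannot separate.

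**Figure D5:**
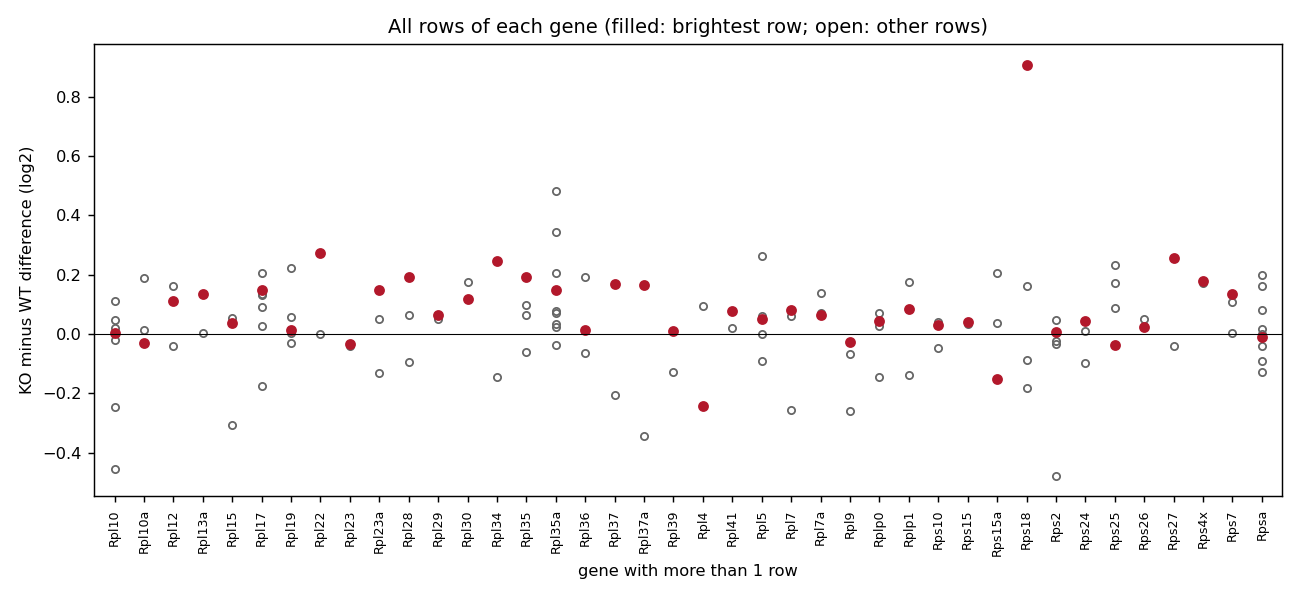
Knockout minus wild-type difference (log2, y axis) of every row with 1 symbol, for the 40 genes with more than 1 such row (x axis). The filled point is the brightest of these rows and open points are the others. The filled point of Rps18 at 0.91 stands apart from its other rows, and no other row lies as far from 0.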

How the data were processed

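Per the labels' protocols, RNA of GFP-positive sorted cells was amplified with a whole-transcript kit and labelled with biotin, 1 array per sample. The authors deposited log2 values; RMA and Partek are named, without versions, in the submitters' processing notes. RMA in general compresses low signals, which was not tested here. Of 115830 rows, 25539 had 1 symbol in the platform annotation, 2300 had several and 87991 were unnamed here. All 61 members were found in the RefSeq gene table (GRCm38.p6). Each gene was represented by its brightest row with 1 symbol.

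R 4.3.3 and limma 3.58.1 fitted 1 linear model per gene over all 20259 genes (empirical Bayes variance, dim genes kept), with Benjamini-Hochberg adjustment over all genes. The fit was tested on simulated data only for returning the size of added differences. Genes were drawn independently there, without the array pattern that genes shared here. Precision is limited by 3 arrays per group, and no detection calls, slides or scan dates were given. Named genes were those with the smallest p in each direction, the brightest and dimmest rows, the P-stalk, Rpsa and related copies, and up to 4 genes of each list; Rpl5, Rpl26, Rpl13a, Rps2, Rpl7a, Eef1a1, Mtor and Larp1 were added for their roles or array values. The members, lists and tests were chosen with earlier results of these data known.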

Additional observations from a re-analysis of the deposited data

How the results depend on the processing

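Of 16 alternatives, none but array weights called a member. With array weights, 14 of 61 members and 4797 of 20259 genes were called, so the members' share was close to that of all genes. The estimate of the weights did not fully converge and put 8.57 on knockout array 2 and 0.142 on knockout array 1. The members called included Rps18 (1.30), Rps9 (-0.73), Rps28 (0.47), Rpl14 (0.41), Rpl34 (0.42), Rpl22 (0.43) and Rps12 (0.41). Without knockout array 1, 2 genes were called, and 0 in each other fit that left out an array. At an adjusted p of 0.1, the main fit called 0 members and 0 genes. At that threshold 2865 of 20259 genes were called without knockout array 1 and 8079 with array weights. Rps18, Rps9 and Rps28 were among those called without knockout array 1, at limma adjusted p of 0.0542, 0.0567 and 0.0606. The median member difference ran from -0.014 (arrays shifted to 1 median) to 0.21 (array weights), was 0.16 after a further quantile normalization, reached 0.0014 when knockout array 2 was left out and 0.20 when knockout array 1 was, and was 0.058 for members above the 90th percentile of level, an alternative chosen after seeing the data. With the row of largest interquartile range Rpl28 was -0.095, Rpl4 0.095, Rps15a 0.21 and Rps27 -0.041. With the mean of rows Rps15a was 0.031, with array weights Rpl32l was 0.073 and Rps15a 0.0070, and after a further quantile normalization Rps20 was 0.025. In fits that left out 1 array, Rps3 ran from -0.17 to 0.023. Of the 61 members, 18 kept their sign in every alternative run for them (14 of the 16 for Rpl10l and Rpl39l, which the level filters dropped) and 28 in all fits that left out an array. The labels state no pairing of samples by replicate number. Deviations of same-numbered arrays correlated at 0.041, 0.14 and -0.15 across genes, which cannot settle the question with so few arrays. With a replicate block 0 members and 0 genes were called and the median member stayed at 0.071.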
